A study of Rattus norvegicus with 56 samples.

Results

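The miR-99, miR-100 and miR-125 family was followed across fetal myocardium, amniotic fluid and maternal serum of the rat. Its members were the rows named miR-99a-5p, miR-99b-5p, miR-100-5p, miR-125a-5p and miR-125b-5p. They made up 5 of the 682 microRNAs listed in the 5 deposited count tables, and all 5 were listed in every tissue. The 56 small RNA sequencing libraries came from Sprague-Dawley rats at embryonic day 19, with 7 libraries in each of 8 groups. Dams of the negative control (NC) group received distilled water by oral gavage, and the other dams received dimethadione (DMO), a compound that disturbs heart development. Fetuses of DMO dams with a ventricular septal defect (VSD) and no malformed major vessel formed the VSD group, and those with an intact septum formed the non-VSD group, fetuses with other visible abnormalities being left out. VSD and non-VSD fetuses therefore share DMO exposure. All 3 groups were sampled in myocardium and amniotic fluid, but serum came only from dams of the NC and VSD groups. Myocardial RNA came from wax blocks, and which fetuses shared a dam is not given in the sources used here, so p-values measure only the spread between these libraries.

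A microRNA is cut from a hairpin and guides a silencing complex to messenger RNAs, mainly through its seed, bases 2 to 8. The miR-99 and miR-100 members are known for repressing the growth kinase mTOR and the IGF1 receptor. The miR-125 members are the vertebrate relatives of lin-4, the first microRNA described in worms, and are known in blood cell formation and in the response to p53. The genes lie in clusters in which a miR-99 or miR-100 hairpin, a let-7 hairpin and a miR-125 hairpin follow each other. In the RefSeq annotation of rat, these are Mir99b, Mirlet7e and Mir125a on chromosome 1 within Spaca6, Mir100, Mirlet7a-2 and Mir125b1 on chromosome 8, and Mir99a, Mirlet7c1 and Mir125b2 on chromosome 11 within a long noncoding RNA gene. Mature miR-125b-5p is made from the hairpins of both chromosome 8 and chromosome 11, and its count cannot be divided between them. Mature let-7a-5p is also made from a hairpin on chromosome 17, and mature let-7c-5p from 1 on chromosome 7, so their counts do not come from these clusters alone.

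The mature sequences are shown because the members fall into a pair of seed groups and because close sequences limit how reads can be told apart. The seed is in capitals. Sequences and places are from RefSeq on the GRCr8 assembly, all on the plus strand, and the build used for the count tables is not given in the sources used here. miR-99a-5p is named only, because its mature sequence is missing from the RefSeq table used, so it is not in the sequence comparisons below.
miR-99b-5p, chr1:67350070-67350091: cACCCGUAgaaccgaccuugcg
miR-100-5p, chr8:50798307-50798328: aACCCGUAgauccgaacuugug
miR-125a-5p, chr1:67350689-67350712: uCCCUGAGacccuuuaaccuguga
miR-125b-5p, chr11:29732588-29732609: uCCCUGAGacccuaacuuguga
miR-99b-5p and miR-100-5p shared the seed ACCCGUA and 18 of 22 positions. Counted from the 5′ end with miR-99b-5p first, they differed at C1A, A11U, C16A and C21U. miR-125a-5p and miR-125b-5p shared the seed CCCUGAG and 15 of the first 22 positions. Among 693 mature names in the RefSeq table, which lacks miR-99a-5p, the only other one with either seed was miR-351-5p, which carries CCCUGAG. The seed of miR-99a-5p was therefore not compared. How reads that match more than 1 of these sequences were assigned is not given in the sources used here.

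Total counts per library were 1694811 to 9371130 in myocardium, 78188 to 331787 in amniotic fluid and 147609 to 581350 in maternal serum, so the fluids were measured less precisely. Levels are CPM, counts scaled to 1e6 per library with TMM factors. RNA was extracted with a different kit in each tissue, and only myocardium came from wax blocks. Amniotic fluid libraries were also made with another library kit and sequencer than the other tissues. Kit and tissue therefore cannot be told apart when levels are compared between any of the tissues. The muscle list (miR-1, miR-133, miR-208 and miR-499) was detected in every myocardium library. In 4 myocardium libraries, NC 2, VSD 1, VSD 4 and VSD 5, the summed epithelial list (the miR-200 family, miR-203, miR-205 and miR-375) was 11596 to 15251 CPM, against 251 to 6580.3 in the other 17. Their muscle list summed to 4079.5 to 20215 CPM, against 19596 to 99046. The members' changes in VSD against NC myocardium are also given without these 4 libraries, a choice made after the values were seen.

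The family had a different make-up in each tissue. In NC myocardium the miR-99 and miR-100 members took 85.9% ± 1.65 (SD, n = 7) of the summed counts of the 5. In NC amniotic fluid they took 31.4% ± 2.53, and in NC maternal serum 5.97% ± 1.83, the rest being miR-125. The ranges of the 3 tissues did not touch, with 84.0% to 89.1% in myocardium, 28.2% to 35.6% in amniotic fluid and 3.85% to 8.59% in serum. In all 8 groups, myocardium was led by miR-99b-5p and both fluids by miR-125a-5p, judged by mean share. The plot of the make-up shows this shift from the blue and green members to the orange ones.

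**Figure D1:**
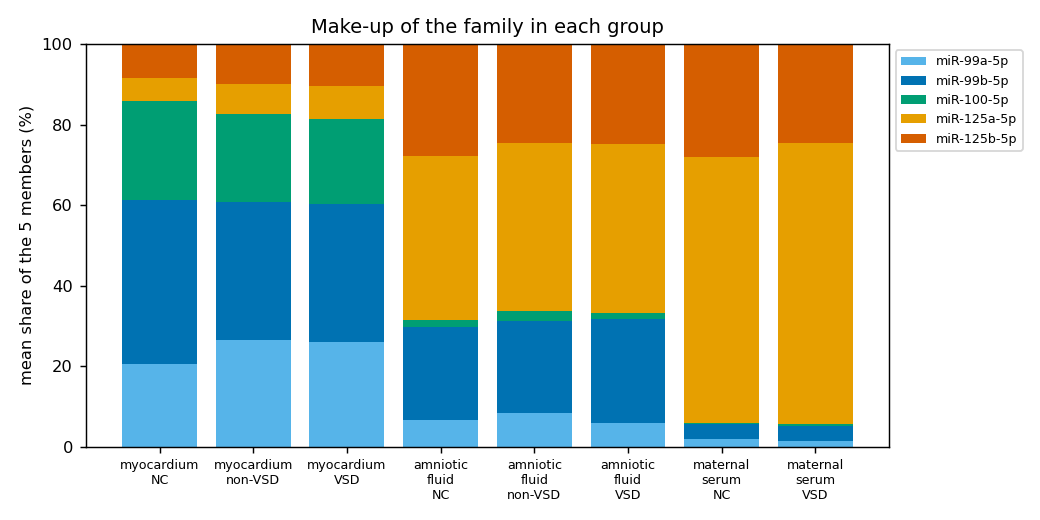
Mean share of each member in the summed counts of the 5 members (%), 1 bar per group of 7 libraries. The miR-99 and miR-100 members fill 85.9% of the NC myocardium bar, 31.4% of the NC amniotic fluid bar and 5.97% of the NC serum bar.

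miR-99b-5p ranked 16th by mean level among 661 microRNAs listed in NC myocardium, and 28th of 523 in amniotic fluid. Its level in NC libraries ran from 9565 to 15337 CPM (median 10652) in myocardium, from 6952 to 15331 (median 10359.6) in amniotic fluid, and from 475 to 747 (median 665) in serum. The first 2 ranges overlapped, and serum lay below both. miR-125a-5p had another order, with 1465 to 1709 CPM (median 1528) in myocardium, 12419 to 23659 (median 19229) in amniotic fluid and 7162 to 20210.5 (median 14341) in serum. Myocardium was the low tissue, and the fluids overlapped. Yet the cluster that holds both hairpins on chromosome 1 spans only 696 bases. The ratio of miR-99b-5p to miR-125a-5p within a library was 6.18 to 10.4 in NC myocardium, 0.492 to 0.669 in NC amniotic fluid and 0.0330 to 0.0903 in NC serum.

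miR-100-5p had a median of 5769 CPM in NC myocardium (4967 to 11071), 679 in amniotic fluid (528 to 1063) and 69.9 in serum (45.1 to 110.1), with no overlap between tissues. miR-99a-5p had medians of 5913 CPM (4133 to 6523), 3277 (1897 to 3715) and 336 (170.4 to 435), again with no overlap. miR-125b-5p had medians of 2355 CPM (1928 to 2994), 12905 (7919.8 to 17055) and 4825 (1987 to 9565). Its serum range overlapped that of both other tissues. The lowest serum counts behind miR-100-5p were 8 reads in a VSD library and 22 in an NC library, so its serum values carry the most counting error.

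Within NC myocardium the order by mean was miR-99b-5p, miR-100-5p, miR-99a-5p, miR-125b-5p and miR-125a-5p. The range of miR-100-5p overlapped those of both miR-99b-5p and miR-99a-5p, although miR-99b-5p was above each of these 2 in 7 of 7 NC libraries, and miR-125b-5p was above miR-125a-5p in 7 of 7. In amniotic fluid miR-125b-5p and miR-99b-5p could not be ordered, with miR-125b-5p higher in 11 of 21 libraries. In serum miR-125a-5p was above miR-125b-5p in 14 of 14 libraries although their ranges overlapped.

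**Figure D2:**
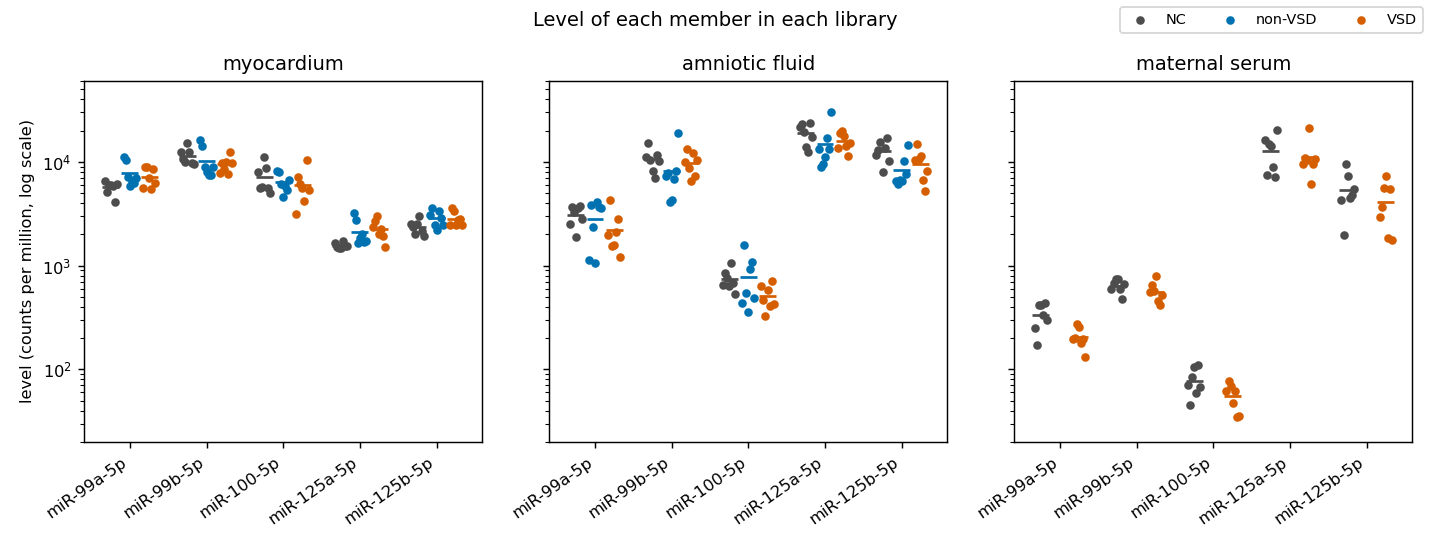
Level of each member in each library (CPM, log axis), with 1 point per library and a line at the group mean. By group mean, miR-125a-5p and miR-125b-5p sit lowest in myocardium, although the libraries of miR-125b-5p overlap between myocardium and serum. In contrast, miR-100-5p falls from a median of 5769 CPM in NC myocardium to 69.9 in NC serum.

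The design asks how DMO exposure with and without a septal defect moved these microRNAs. In edgeR's quasi-likelihood test, none of the 5 members reached a Benjamini-Hochberg adjusted p under 0.05 in any of 7 comparisons, where 0.426% of microRNAs passed for VSD against NC in myocardium, 0.219% for non-VSD against NC in myocardium and 4.96% for non-VSD against NC in amniotic fluid, and none in the other 4. At an unadjusted p under 0.05 there were 5 of 35 member tests, against 15.3% of all microRNA tests in these comparisons (365 of 2387). DESeq2 called 1 member at the adjusted threshold, miR-125a-5p in VSD myocardium, where it called 9.81% of all microRNAs.

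In VSD against NC myocardium, 3 members had higher and 2 had lower fitted values, where 46.7% of all microRNAs were higher and 53.3% lower, with a median log2 fold change of 0.27 against -0.05 over all 469 tested microRNAs, and 1 member passed the unadjusted threshold, which 19.2% of all microRNAs passed. miR-125a-5p was 1519 to 3028 CPM (median 2269) in VSD and 1648 to 3237 (median 1862) in non-VSD, against 1465 to 1709 in NC. In VSD 6 of 7 libraries and in non-VSD 5 of 7 lay above the highest NC library, and the groups overlapped. The log2 fold change was 0.53 in VSD (SE 0.16, edgeR adjusted p = 0.0873, above the NC median in 6 of 7 libraries) and 0.49 in non-VSD (SE 0.18, edgeR adjusted p = 0.145, 7 of 7). Without the 4 libraries that stood apart, the VSD value was 0.58 (edgeR adjusted p = 0.181).

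miR-99a-5p was 5498 to 8903 CPM (median 6973) in VSD and 5901 to 10999 (median 6947) in non-VSD myocardium, against 4133 to 6523 in NC. Its log2 fold change was 0.34 in VSD (SE 0.17, edgeR adjusted p = 0.266) and 0.50 in non-VSD (SE 0.18, edgeR adjusted p = 0.145, above the NC median in 7 of 7 libraries). Without the 4 libraries the VSD value was 0.53 (edgeR adjusted p = 0.156). In non-VSD against NC, 2 members passed the unadjusted threshold, miR-99a-5p and miR-125a-5p, where 17.5% of all microRNAs did. miR-125b-5p was 2438 to 3551 CPM in VSD and 2218 to 3590.3 in non-VSD, with log2 fold changes of 0.27 and 0.32 that did not pass. Without the 4 libraries the VSD value was 0.40 (edgeR adjusted p = 0.344).

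miR-99b-5p and miR-100-5p had fitted values below 0 that did not pass and that moved with the libraries and the scaling. miR-99b-5p was 7697 to 12499.9 CPM (median 9737) in VSD, with a log2 fold change of -0.29 (SE 0.16, edgeR adjusted p = 0.303), and miR-100-5p was 3129.6 to 10324 CPM (median 5556), with -0.25 (SE 0.26, edgeR adjusted p = 0.582). Without the 4 libraries they were -0.17 for miR-99b-5p and -0.0043 for miR-100-5p, so the value of miR-100-5p rested on those libraries. Both signs turned when only library size was used for scaling (0.11 and 0.13), a setting that moved the median of all microRNAs to 0.32. VSD and non-VSD myocardium were close, with log2 differences of -0.12 to 0.08 over the 5 members. The 95% intervals ran from -0.58 at the lowest to 0.45 at the highest, and no member passed the unadjusted threshold, which 11.6% of all microRNAs passed.

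**Figure D3:**
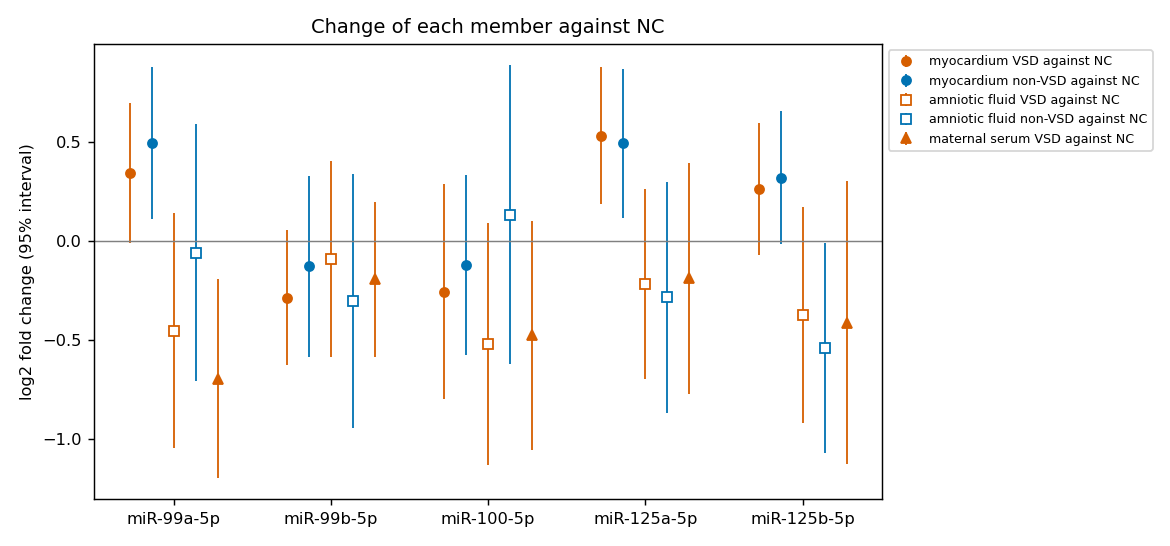
Log2 fold change of each member against NC with its 95% interval, from edgeR with 7 libraries a group. Filled circles are myocardium, open squares amniotic fluid and triangles maternal serum, with VSD in orange and non-VSD in blue. Values for miR-99a-5p, miR-125a-5p and miR-125b-5p lie above 0 in myocardium and below 0 in both fluids.

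Ratios within a library do not depend on scaling, and they are given as descriptions. The ratio of miR-99b-5p to miR-125a-5p, neighbours on chromosome 1, was 6.18 to 10.4 (median 7.11) in NC myocardium, 3.78 to 5.40 (median 5.04) in non-VSD and 2.81 to 6.45 (median 3.66) in VSD. All 7 non-VSD libraries and 5 of 7 VSD libraries lay below all NC libraries. Over all pairs of tested microRNAs, 1.25% of ratios did not overlap between non-VSD and NC, and 0.541% between VSD and NC. VSD 1, VSD 4 and VSD 5 were at 3.34, 4.95 and 3.39, and without them and NC 2 only 2 of 4 VSD libraries lay below all NC libraries, the other 2 being at 6.45. Over these myocardium libraries the levels of the 2 members had a Spearman's rho of -0.14 (n = 21), although the hairpins are neighbours. The non-VSD and VSD ratios share their NC libraries.

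The ratio of miR-99a-5p to miR-100-5p was 0.541 to 1.23 in NC, 1.04 to 1.34 in non-VSD and 0.819 to 1.77 in VSD myocardium. miR-99a-5p was the more counted of the pair in 7 of 7 non-VSD and 6 of 7 VSD libraries, against 2 of 7 NC libraries. How reads of this pair were told apart is not given, and their sequences were not compared, as that of miR-99a-5p was missing. The groups overlapped. The ratio of miR-100-5p to miR-125b-5p, from one cluster on chromosome 8 and a mature form made at 2 places, was 2.40 to 4.44 in NC, 1.75 to 2.71 in non-VSD and 1.26 to 3.68 in VSD, with 6 of 7 VSD libraries below all NC libraries. That of miR-125a-5p to miR-125b-5p overlapped between all groups. The share of all ratios with as many libraries outside the NC range was not counted. The ratios in this paragraph are not given without the 4 libraries that stood apart, on which the fitted value of miR-100-5p rested.

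The opposite arm of a hairpin is usually degraded. miR-125b-2-3p, the opposite arm of the chromosome 11 hairpin, was 213 to 444 CPM in NC, 160 to 250.0 in non-VSD and 122 to 238 in VSD myocardium. Its log2 fold change was -0.76 in VSD (SE 0.21, edgeR adjusted p = 0.0716, below the NC median in 7 of 7) and -0.52 in non-VSD (SE 0.20, edgeR adjusted p = 0.165, 7 of 7). Without the 4 libraries the VSD value was -0.61 (edgeR adjusted p = 0.181), and DESeq2 called both (adjusted p = 0.0063 and 0.0339), where it called 9.81% and 11.4% of all microRNAs. Leaving out NC 2 or VSD 6 alone also brought the VSD value past the threshold (edgeR adjusted p = 0.0187 and 0.0499). The ratio of miR-125b-5p to miR-125b-2-3p was 4.53 to 11.1 in NC, 12.3 to 15.4 in non-VSD and 10.6 to 20.3 in VSD. All 7 non-VSD and 6 of 7 VSD libraries lay above all NC libraries, and so did 4 of 4 VSD libraries without the 4 that stood apart. As miR-125b-5p also comes from the chromosome 8 hairpin, this ratio does not compare the arms of a single hairpin. Among 145 hairpins with both arms tested under matching names, 4.14% had a ratio that did not overlap between non-VSD and NC, and among 153 in VSD, 0.654%. The ratio to miR-125b-1-3p, the arm of the chromosome 8 hairpin, overlapped between groups (16.6 to 52.7 in NC, 17.9 to 50.4 in non-VSD and 30.5 to 56.3 in VSD). That of miR-125a-5p to miR-125a-3p, from a single hairpin, was 68.0 to 103 in NC, 82.5 to 136 in non-VSD and 83.3 to 278 in VSD. In VSD 6 of 7 libraries and in non-VSD 3 of 7 lay above all NC libraries, and the groups overlapped. The share of all hairpins with such counts was not counted, and this ratio is not given without the 4 libraries. The lowest count of miR-125a-3p in VSD was 20. For the miR-99 and miR-100 members these ratios also overlapped.

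**Figure D4:**
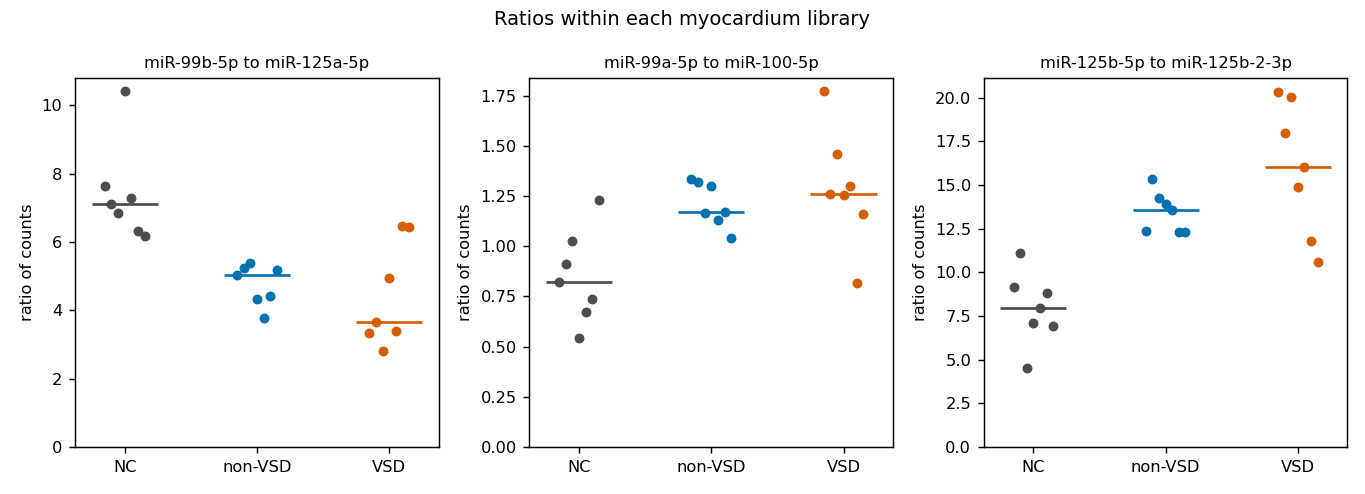
Ratio of counts within each myocardium library for 3 pairs, with 1 point per library and a line at the group median (7 libraries a group). The ratio of miR-99b-5p to miR-125a-5p is 6.18 to 10.4 in NC and 3.78 to 5.40 in non-VSD, and that of miR-125b-5p to miR-125b-2-3p is 4.53 to 11.1 in NC and 12.3 to 15.4 in non-VSD.

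The red blood cell list (miR-451, miR-144 and miR-486) had a lower median sum in both DMO groups of myocardium than in NC. Its sum was 2651 to 91137 CPM (median 33790) in NC, 3435 to 25159 (median 7523) in VSD and 3255 to 33986 (median 7004) in non-VSD, so the ranges overlapped. All 4 of its members had lower values at an unadjusted p under 0.05 in VSD and 3 of 4 in non-VSD. Of the white blood cell list, 2 of 4 members were lower at that threshold in VSD and 1 of 4 in non-VSD. Of all microRNAs, 19.2% passed it in VSD and 17.5% in non-VSD, in either direction. No microRNA of the lists in this paragraph passed the adjusted threshold in these comparisons. Of the placenta and stem cell list, 2 of 3 tested members were higher in non-VSD (list median log2 fold change 1.67), at summed levels of 6.44 to 34.1 CPM against 0.607 to 9.70 in NC. Over the 21 myocardium libraries, Spearman's rho with the placenta and stem cell list was 0.62 for miR-99a-5p, 0.57 for miR-125b-5p, 0.46 for miR-125a-5p, 0.44 for miR-100-5p and 0.11 for miR-99b-5p. In the same order it was -0.12, -0.22, -0.38, 0.22 and 0.03 with the red cell list, and -0.28, -0.33, -0.49, 0.07 and -0.05 with the white blood cell list. The part of these lists, and of the 4 libraries with high epithelial microRNAs, in the myocardial changes and ratios was not tested. In bulk samples fewer cells of a type and less RNA per cell cannot be told apart.

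In amniotic fluid, all 5 members had lower fitted values in VSD than in NC (51.8% of all microRNAs were lower, and the median log2 fold change was -0.37, against -0.06 over 245 microRNAs), and none passed the unadjusted threshold, which 13.5% of all microRNAs passed. The lowest was miR-100-5p at -0.52 (SE 0.29, edgeR adjusted p = 0.425). In non-VSD against NC, 1 member passed the unadjusted threshold, where 19.4% of all did. This was miR-125b-5p, at 6116 to 14591 CPM (median 6630.0) against 7919.8 to 17055 (median 12905) in NC. The groups overlapped, with 6 of 7 non-VSD libraries below the NC median and non-VSD 7 high (log2 fold change -0.54, SE 0.25, edgeR adjusted p = 0.238). The count of 1 was not stable, since no member passed when any 1 of 11 libraries was left out and 3 passed without non-VSD 7. The summed epithelial list was 53555 to 121759.7 CPM (median 74187) in non-VSD against 89826 to 144857 (median 114602) in NC. Over the 21 amniotic fluid libraries its rho with miR-125b-5p was 0.67, and that of the white blood cell list was -0.65. Their part in the difference was not tested. Between VSD and non-VSD no member passed, where 10.6% of all did.

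The let-7 partner of the chromosome 1 cluster did pass in amniotic fluid. let-7e-5p, of a family known for repressing growth genes, was 1954 to 4000.2 CPM in non-VSD against 4351 to 9459 in NC in the scaling over all 3 groups, and its log2 fold change was -1.04 (SE 0.26, edgeR adjusted p = 0.0272, below the NC median in 7 of 7). In the scaling over the tested groups alone, the ranges of non-VSD and NC overlapped. The call was lost without NC 1, NC 2, NC 3, non-VSD 2, non-VSD 3 or non-VSD 5, each left out alone, and without the filter on low counts (edgeR adjusted p = 0.0688), while the log2 fold change stayed between -1.17 and -0.97 over the libraries left out. Its neighbours miR-99b-5p and miR-125a-5p had -0.30 and -0.28 in the same comparison and did not pass, with ranges of -0.66 to -0.088 and -0.57 to -0.14 over the libraries left out. Whether let-7e-5p differed from them was not tested. The other partners, let-7a-5p and let-7c-5p, which are also made outside the clusters, did not pass the adjusted threshold (let-7c-5p -0.74, edgeR adjusted p = 0.0687). In the other 6 comparisons none of the 3 let-7 partners passed it, nor did any opposite arm or any microRNA with a related seed in all 7. miR-351-5p, which has the miR-125 seed, lay between -0.11 and 0.40. miR-10a-5p, whose seed ACCCUGU opens with the same bases as that of miR-99b-5p, was at -0.62 in VSD and -0.69 in non-VSD amniotic fluid (edgeR adjusted p = 0.231 and 0.138). In VSD against non-VSD myocardium it was at 1.11, and miR-10b-5p at 1.19 (edgeR adjusted p = 0.426 for both). All 4 red cell microRNAs were higher at an unadjusted p under 0.05 in non-VSD against NC amniotic fluid, 2 of them at the adjusted threshold. Their sum was 25498 to 86339 CPM in non-VSD against 15088 to 34906 in NC. Their part in the amniotic fluid differences was not tested.

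In maternal serum, all 5 members had lower fitted values in VSD than in NC (52.5% of all microRNAs were lower, and the median log2 fold change was -0.41, against -0.03 over 219 microRNAs), and 1 passed the unadjusted threshold, where 13.7% of all did. miR-99a-5p was 130 to 274 CPM (median 196) in serum of dams in the VSD group, against 170.4 to 435 (median 336) in NC. All 7 VSD libraries lay below the NC median, the ranges overlapped through NC 1 and NC 2, and the log2 fold change was -0.69 (SE 0.24, edgeR adjusted p = 0.176). These values rest on 37 to 225 reads. Without NC 2 the log2 fold change was -0.90 and passed (edgeR adjusted p = 0.0399), and 3 members then passed the unadjusted threshold. The level of miR-99a-5p went with the summed muscle list over the 14 serum libraries (Spearman's rho 0.81) and against the white blood cell list (rho -0.72), libraries and depth being shared by both values. The muscle list was 3255 to 16275 CPM in NC and 1764 to 13386 in VSD serum, and its part in the difference was not tested. As no serum of a non-VSD group was sampled, DMO given to the dam and the defect of the fetus cannot be told apart in serum.

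Whether a member changed differently between tissues was tested directly, by permuting group labels within each tissue (100000 permutations, two-sided, adjusted over 20 tests). In 6 of 20 tests the adjusted p was under 0.05, each with a higher value in myocardium. The test was run for the members only, so the share of all microRNAs that would pass it is not known. For VSD against NC, miR-99a-5p had a change in mean log2 CPM of 0.33 in myocardium and -0.65 in maternal serum, a difference of 0.99 (permutation p = 0.00128, adjusted p = 0.0191). Against amniotic fluid the differences were 0.89 for miR-99a-5p, 0.74 for miR-125a-5p and 0.71 for miR-125b-5p (permutation test, adjusted p = 0.0331, 0.0191 and 0.0397). For non-VSD against NC they were 0.84 for miR-125a-5p and 0.92 for miR-125b-5p (permutation test, adjusted p = 0.0345 and 0.0191). miR-99b-5p and miR-100-5p did not pass in any of their tests, and no test between amniotic fluid and maternal serum passed. The 6 tests share myocardium and amniotic fluid libraries. Tissue cannot be told apart from extraction kit for any pair of tissues, nor from library kit and sequencer for amniotic fluid. Without the 4 myocardium libraries that stood apart, 6 of 20 tests passed as well.

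Outside the family, the microRNAs whose levels most resembled each member over all libraries of a tissue, by Spearman's rho, differed between tissues. In myocardium (n = 21) they were miR-139-5p for miR-99a-5p (0.82), miR-128-3p for miR-99b-5p (0.76) and miR-100-5p (0.71), miR-301a-3p for miR-125a-5p (0.74) and let-7a-2-3p for miR-125b-5p (0.68). In amniotic fluid (n = 21) the epithelial miR-205 was, among microRNAs outside the family, nearest to miR-99b-5p (0.74) and second for both miR-125 members (0.72 for miR-125a-5p and 0.58 for miR-125b-5p). In serum (n = 14) the muscle microRNA miR-133b-3p was nearest to miR-99a-5p (0.89) and miR-184 to miR-125b-5p (0.90). Within the family, miR-125a-5p and miR-125b-5p were each nearest to the other in amniotic fluid (0.80). In myocardium the microRNA nearest to miR-125b-5p was miR-125a-5p (0.69), and that nearest to miR-100-5p was miR-99b-5p (0.71). For miR-125a-5p and miR-99b-5p there, microRNAs outside the family were nearer. miR-99b-5p and miR-125a-5p, neighbours on chromosome 1, went together in amniotic fluid (0.73) and serum (0.65) but not in myocardium (-0.14). These values are descriptions over libraries that share depth and group.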

How the data were processed

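The authors extracted RNA with a kit for each tissue, prepared TruSeq (myocardium, serum) or QIAseq (amniotic fluid) small RNA libraries, converted reads with bcl2fastq 2.19, filtered them with FASTX-Toolkit and deposited raw counts per mature microRNA. Aligner, annotation and build are not given in the sources used here. In the deposited tables, 70 columns of normalized values and the authors' comparison columns (fold changes and p-values) were not used. Samples were grouped by their labels.

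Counts were tested in R 4.3.3 with edgeR 4.0.16 (filterByExpr with minimum count 10 and minimum total 15, TMM scaling, quasi-likelihood test, Benjamini-Hochberg adjustment over all tested microRNAs), 7 against 7 libraries. VSD against non-VSD came from a fit of 3 groups. Log2 CPM used a prior count of 2, and ratios added 0.5 to each count. Intervals are 95% from the fit's degrees of freedom. DESeq2 1.42.0, scaling by library size, no filter, a replicate block and leaving out each library were alternatives. Both tests were tested on simulated data. No 2 libraries of a group were duplicates (168 pairs). Members, lists and tests were chosen with earlier results of these data known. Named microRNAs were the members, their let-7 partners, opposite arms, microRNAs with related seeds and the nearest outside the family by Spearman's rho. The family shares, the background for ratios and the removal of 4 myocardium libraries were added after values were seen.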

Additional observations from a re-analysis of the deposited data

Results flagged for a closer look

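The change against NC differed between tissues, by permutation of the group labels with adjustment over 20 tests, in 6 cases. Only the members were tested in this way, so the share of all microRNAs that would pass is not known. The differences (myocardium minus the other tissue, in mean log2 CPM) for VSD were 0.89 for miR-99a-5p, 0.74 for miR-125a-5p and 0.71 for miR-125b-5p against amniotic fluid, and 0.99 for miR-99a-5p against maternal serum. For non-VSD they were 0.84 for miR-125a-5p and 0.92 for miR-125b-5p against amniotic fluid. No library lay far enough from its group to be singled out for any member, in 40 groups of 7 values.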

How the results depend on the processing

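None of the 5 members passed the adjusted threshold in 7 comparisons, and this count of 0 held without a filter and with the replicate block. Scaling by library size alone called 3 members in VSD myocardium (miR-99a-5p, miR-125a-5p and miR-125b-5p) and 2 in non-VSD myocardium (miR-99a-5p and miR-125a-5p), where it called 8.1% and 4.82% of all microRNAs and moved their median to 0.32 and 0.13. DESeq2 called 1 in VSD myocardium. Leaving out 1 library gave 0 to 1 members called in maternal serum, and 0 in the other comparisons.

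Library size alone turned the sign of miR-99b-5p and miR-100-5p in myocardium VSD (to 0.11 and 0.13) and non-VSD (to 0.067 and 0.11), and in VSD against non-VSD myocardium those of miR-99a-5p (0.041), miR-99b-5p (0.042), miR-100-5p (0.015) and miR-125b-5p (0.13). DESeq2 turned miR-99a-5p in amniotic fluid non-VSD to 0.0033, and no filter turned miR-125b-5p in VSD against non-VSD myocardium to 0.016. Without the 4 myocardium libraries, VSD against non-VSD turned for miR-99a-5p (0.033), miR-100-5p (0.15) and miR-125b-5p (0.060). Under library size alone, 9 of 20 tissue differences passed, and 6 that had not passed changed sign. For VSD these were miR-99b-5p between myocardium and amniotic fluid (0.30) and serum (0.28), and between the fluids miR-99a-5p (-0.0066), miR-99b-5p (-0.016) and miR-125b-5p (-0.091). For non-VSD it was miR-100-5p between myocardium and amniotic fluid (0.20). Without the 4 libraries, miR-99b-5p between myocardium and serum was 0.015. The cause was not tested.

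Leaving out 1 library, signs turned for values near 0, with ranges of -0.20 to 0.026 for miR-100-5p in myocardium non-VSD, -0.19 to 0.018 for miR-99b-5p in amniotic fluid VSD, -0.22 to 0.15 for miR-99a-5p and -0.12 to 0.31 for miR-100-5p in amniotic fluid non-VSD. In VSD against non-VSD myocardium they were -0.22 to 0.038 for miR-99b-5p, -0.27 to 0.015 for miR-100-5p, -0.056 to 0.22 for miR-125a-5p and -0.11 to 0.063 for miR-125b-5p.

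Groups share replicate numbers in the labels, but same-numbered libraries did not deviate together in every pair (correlations -0.62 to 0.47), so the numbers were not taken as pairs. With the replicate block, 0 members were called in each comparison, and miR-100-5p in amniotic fluid non-VSD turned to -0.015. The let-7e-5p call in that comparison was also lost under the block (-1.03, edgeR adjusted p = 0.127), and its adjusted p over the libraries left out was 0.0278 to 0.0752 with edgeR. Shallow fluid libraries limit miR-100-5p most.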
